A study of Mus musculus with 26 samples.

Results

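The 32 genes described here are those of the unfolded protein and amino acid stress responses, 32 of the 17097 genes that the arrays measured with a probe set of a single gene symbol. They were taken from a list of gene symbols with no threshold on their values, though the list was drawn up with earlier results of these data known, and each is represented by its brightest such probe set over the 26 arrays. All 32 were measured. They fall into 2 arms of 16 genes: the transcription factor Atf4 with its targets in amino acid stress, and the sensors, chaperones and degradation factors of the endoplasmic reticulum (ER).

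Expression was measured on mouse Affymetrix HT MG-430 PM arrays in 7 groups of C57BL/6 material, and each array title carries 1 of 2 codes, dka or mmm, whose meaning the labels do not give. Every group, controls included, is labelled Trp53-/-, Cdkn2c-/-, and every group other than the Trp53 neurospheres is also labelled with Myc; how Myc was introduced is not stated. Under code dka there were 3 arrays each of Trp53 neurospheres (labelled granule neural progenitors, P7 in the series text), Group3 neurospheres (labelled medulloblastoma cells), Group3 tumors and Group3 secondary tumors. Under code mmm there were 4 arrays of Group3 neurospheres, 2 of untreated Group3 tumors, 2 of tumors given pemetrexed, 3 given gemcitabine and 3 given both. Doses, treatment times, tumor sites and the ages of tumor-bearing mice were not given in the labels used here. The labels do not say whether arrays of a group came from separate mice or cultures, so each p-value measures the spread between arrays, which may be technical.

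When amino acids run short or unfolded proteins fill the ER, kinases that phosphorylate the initiation factor eIF2 lower general translation while ATF4 is translated more. ATF4 then drives genes for amino acid synthesis, amino acid import and feedback on the stress itself. The other ER branches, through IRE1 with XBP1 and through ATF6, raise chaperones, disulfide isomerases and degradation factors. In medulloblastoma, a tumor of the cerebellum, the same genes can be read as a record of nutrient and folding demand in cultured cells and in tumors.

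The 2 arms carry different known elements near their start sites, and RefSeq promoters (GRCm38.p6, 250 bases before the start and 50 from it on, on the gene's strand) were found for 28 of the 32 genes. The core of the C/EBP-ATF response element, TGATGNAA on either strand, was present for 6 of 14 ATF4-arm genes (Asns, Chac1, Nupr1, Slc7a11, Trib3 and Vldlr) and for 1 of 14 ER-arm genes (Herpud1). It was present for 1219 of all 27025 genes with a promoter, or in 3.97% of the 32851 promoters, as some genes have several. The ER stress response element, CCAAT and CCACG separated by 9 bases on either strand, was present for 6 of 14 ER-arm genes (Calr, Creld2, Dnajc3, Hsp90b1, Hspa5 and Pdia6) and for 0 of 14 ATF4-arm genes. Among all 27025 genes it was present for 37, or in 0.119% of all promoters. A second ER stress element (ATTGG, any base, CCACG), held by 0.0365% of all promoters, was found for Herpud1, and the XBP1 element TGACGTGG, held by 0.676%, for none of the 28 genes. The elements searched do not overlap each other in these promoters. The promoters of 4 amino acid stress genes that hold the C/EBP-ATF core and fell in untreated mmm tumors below are shown, with the core in capitals:
Nupr1, chr7:126625421-126625720, minus strand: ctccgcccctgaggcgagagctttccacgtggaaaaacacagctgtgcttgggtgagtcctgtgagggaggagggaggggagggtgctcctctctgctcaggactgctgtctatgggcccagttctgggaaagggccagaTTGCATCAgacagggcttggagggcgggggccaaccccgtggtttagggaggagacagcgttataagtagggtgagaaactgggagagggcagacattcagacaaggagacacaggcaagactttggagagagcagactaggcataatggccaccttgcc
Trib3, chr2:152344011-152344310, minus strand: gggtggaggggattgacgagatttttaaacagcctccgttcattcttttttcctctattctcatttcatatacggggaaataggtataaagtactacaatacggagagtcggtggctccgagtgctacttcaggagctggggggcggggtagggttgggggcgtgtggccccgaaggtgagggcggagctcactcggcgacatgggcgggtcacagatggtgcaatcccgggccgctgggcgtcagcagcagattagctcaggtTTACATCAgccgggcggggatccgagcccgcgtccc
Chac1, chr2:119350992-119351291, plus strand: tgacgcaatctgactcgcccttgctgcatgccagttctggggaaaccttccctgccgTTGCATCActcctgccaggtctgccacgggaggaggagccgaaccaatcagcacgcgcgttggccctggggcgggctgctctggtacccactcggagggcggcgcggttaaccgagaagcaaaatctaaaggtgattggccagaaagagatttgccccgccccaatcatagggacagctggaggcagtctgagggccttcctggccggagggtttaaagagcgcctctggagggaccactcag
Asns, chr6:7693160-7693459, minus strand: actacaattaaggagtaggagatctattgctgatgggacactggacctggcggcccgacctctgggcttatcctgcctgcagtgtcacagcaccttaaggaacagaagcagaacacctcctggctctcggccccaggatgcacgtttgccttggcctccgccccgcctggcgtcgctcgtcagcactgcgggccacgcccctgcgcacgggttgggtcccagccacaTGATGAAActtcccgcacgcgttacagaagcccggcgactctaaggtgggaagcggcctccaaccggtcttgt

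For comparison, the promoters of 3 ER chaperone genes are shown, with the outer blocks of the ER stress element (on either strand) in capitals and the bases between them in lower case; Hsp90b1 holds the element in 2 places:
Hspa5, chr2:34771840-34772139, plus strand: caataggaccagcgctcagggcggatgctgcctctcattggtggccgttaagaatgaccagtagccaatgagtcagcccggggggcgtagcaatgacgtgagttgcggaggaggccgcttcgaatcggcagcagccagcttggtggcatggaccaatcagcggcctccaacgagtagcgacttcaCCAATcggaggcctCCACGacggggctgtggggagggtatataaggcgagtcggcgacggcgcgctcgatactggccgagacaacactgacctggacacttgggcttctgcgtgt
Hsp90b1, chr10:86705395-86705694, minus strand: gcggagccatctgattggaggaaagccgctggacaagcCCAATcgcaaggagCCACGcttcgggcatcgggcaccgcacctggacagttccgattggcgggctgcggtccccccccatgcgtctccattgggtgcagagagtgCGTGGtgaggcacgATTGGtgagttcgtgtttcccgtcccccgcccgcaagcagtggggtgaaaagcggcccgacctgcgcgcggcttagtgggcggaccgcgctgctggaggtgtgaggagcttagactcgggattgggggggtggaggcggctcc
Dnajc3, chr14:118937682-118937981, plus strand: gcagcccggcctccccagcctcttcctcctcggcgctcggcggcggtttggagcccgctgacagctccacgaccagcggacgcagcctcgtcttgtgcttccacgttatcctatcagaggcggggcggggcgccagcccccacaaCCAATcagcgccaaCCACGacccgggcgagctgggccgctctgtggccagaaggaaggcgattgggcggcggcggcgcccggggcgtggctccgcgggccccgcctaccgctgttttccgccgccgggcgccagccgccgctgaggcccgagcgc

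A match is a description of letters in the window, not a measured binding site. Counted from the start base as 0, the core lies from -110 to -103 in Nupr1, from 14 to 21 in Trib3, from -193 to -186 in Chac1 and from -23 to -16 in Asns, and the element of Hspa5 from -65 to -47. The Slc3a2, Sesn2 and Ppp1r15a promoters found held no core, and no Slc7a5 promoter was found. The Slc3a2 window (8713848 to 8714147, minus strand) lies inside the annotated gene, which reaches 8723369, so its outermost start was not searched. The same holds for Slc7a11 (minus strand, window up to 50443863, gene up to 50499087) and Edem1 (plus strand, window from 108828391, gene from 108824045). Slc3a2, Sesn2, Ppp1r15a and Slc7a5 all fell beside Asns in the comparison of untreated mmm tumors with neurospheres described below.

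Values are log2 intensities, so a difference of 1 is a factor of 2. Array medians lay between 4.65 and 4.82. Myc itself read 6.93 to 9.48 on the 23 arrays labelled with it and 8.09 to 9.06 on the 3 Trp53 neurosphere arrays, which overlap, whereas Mycn read 12.4 to 15.3 on those 23 arrays and 4.46 to 4.82 on the Trp53 neurospheres; the groups are therefore named by their labels. Cdkn2c read 3.28 to 4.80, about or below the array medians. The label granule neural progenitors matches the Trp53 neurospheres, whose 7 measured granule markers averaged 9.78 to 10.1 per array; these arrays also read 6.49 to 7.10 for 10 microglia and macrophage markers, a cell type that the label does not name. In Group3 neurospheres the granule markers averaged 4.43 to 6.30, with 4 of 7 below the array median, and the microglia markers 3.88 to 4.16, with 9 of 10 below it. All tumors carried microglia signal. Group means of single probe sets over dka and mmm Group3 neurospheres differed by an SD of 0.132 with mmm replicates 4, 5 and 6. The SD was 0.216 to 0.292 with any 3 that included replicate 7. Probe set values ran from 2.56 to 13.86 in dka and from -0.41 to 16.11 in mmm. The sources used here do not say how the 2 codes were put on 1 scale, so comparisons were made within a code. The later test between codes sets 2 such differences against each other, and the effect of the scale on it was not tested.

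Members differed in how far they moved. Across the 9 combinations of group and code, a description that crosses the 2 codes, the widest ranges of group means were those of 5 ATF4-arm genes: 3.46 for Trib3, 3.36 for Nupr1, 3.25 for Chac1, 3.05 for Ppp1r15a and 2.69 for Vldlr. Other ATF4-arm genes ranged less, by 1.03 for Atf4, 0.996 for Ddit4 and 0.99 for Slc7a11. The narrowest were ER-arm genes, at 0.47 for Hspa5, 0.46 for Creld2 and 0.45 for Edem1, while Sdf2l1 (1.86), Dnajb9 (1.65), Ern1, Dnajc3 and Atf6 exceeded 1. Xbp1, the transcription factor whose RNA is spliced by IRE1, lay between 9.65 and 11.07 on every array; these probe sets do not tell its spliced from its unspliced form. Slc7a11, the cystine importer, averaged 3.99 over the arrays, below the array medians, so its differences come from a dim probe set.

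**Figure D1:**
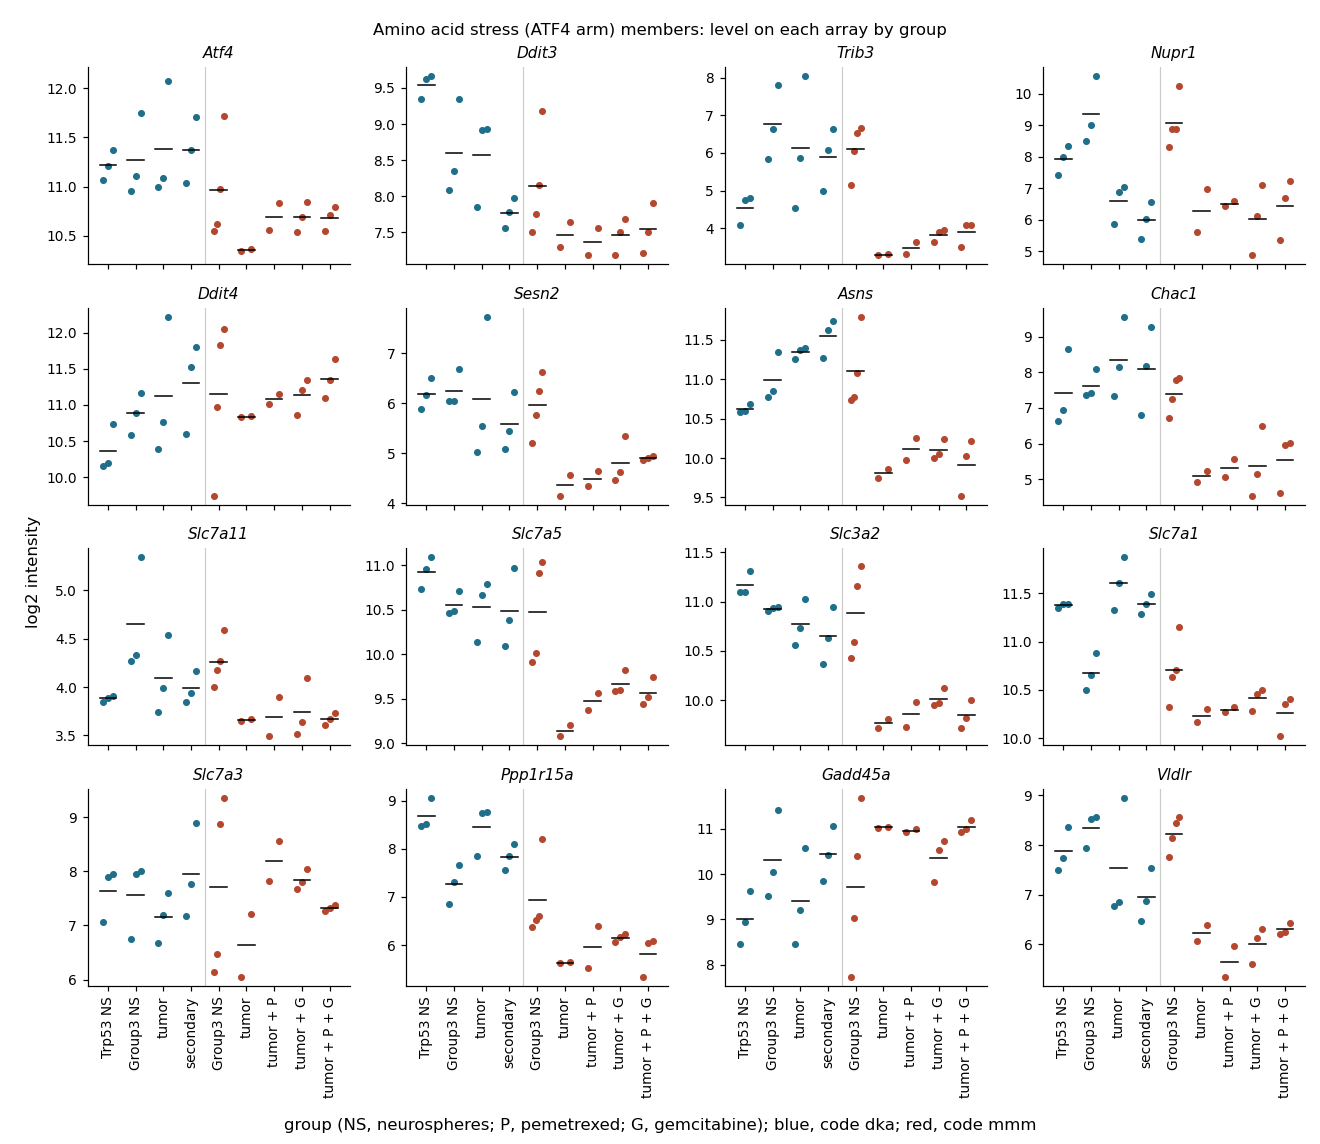
Log2 intensity (vertical axis) of the 16 ATF4-arm members on each of the 26 arrays (points) by group, with group means as black bars; blue is code dka and red is code mmm. The untreated mmm tumors lie below every mmm neurosphere array for Trib3, Nupr1, Sesn2, Asns, Chac1, Slc7a5, Slc3a2, Ppp1r15a and Vldlr, while the dka tumors do not for most of them.

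The largest shift of the amino acid stress genes was between untreated tumors and neurospheres under code mmm. Of the 16 ATF4-arm members, 9 fell in the tumors (limma, Benjamini-Hochberg adjusted p under 0.05 over all genes), 0 rose, and 15 of 16 estimates were below 0. The median difference of the arm was -1.206, against -0.046 for all genes, and 11.5% of all genes were lower and 10.6% higher in this comparison. These genes cover regulators, amino acid synthesis, import and eIF2 feedback, and their values are given in that order.

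Trib3, a pseudokinase that restrains ATF4, read 6.67, 6.54, 5.14 and 6.06 in the neurospheres and 3.28 and 3.33 in the tumors. It fell by 2.80 (SE 0.68, adjusted p = 0.00546); both tumor values lie below the array medians, so no fold is given. Nupr1, a small stress-induced chromatin protein, read 10.24, 8.31, 8.88 and 8.87 in the neurospheres and 5.60 and 6.96 in the tumors. It fell by 2.79 (SE 0.68, adjusted p = 0.00549). For both genes no tumor array reached any neurosphere array. Atf4 itself read 11.72, 10.97, 10.62 and 10.55 against 10.35 and 10.37, without overlap, a difference of -0.61 (SE 0.31, adjusted p = 0.175), and Ddit3, the proapoptotic factor CHOP, differed by -0.67 (SE 0.40, adjusted p = 0.25). The arrays of Ddit3 overlapped between the groups.

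Asns, which makes asparagine, read 10.74, 10.78, 11.08 and 11.79 in the neurospheres and 9.75 and 9.86 in the tumors. It fell by 1.29 (SE 0.24, adjusted p = 0.000817). Chac1, which degrades glutathione, read 7.79, 7.84, 6.71 and 7.25 against 5.25 and 4.94, and fell by 2.30 (SE 0.70, adjusted p = 0.0229). Both subunits of the large neutral amino acid importer fell. Its transport subunit Slc7a5 read 9.92, 10.02, 10.91 and 11.04 in neurospheres and 9.21 and 9.08 in tumors (fall of 1.33 on the log2 scale, SE 0.28, adjusted p = 0.00213). Its partner Slc3a2 read 10.59, 10.43, 11.16 and 11.36 against 9.72 and 9.81 (fall of 1.12, SE 0.21, adjusted p = 0.000828). The other carriers did not pass with their brightest probe sets: Slc7a1, the arginine and lysine importer, differed by -0.47 (adjusted p = 0.0737), Slc7a11 by -0.60 (adjusted p = 0.105) and Slc7a3, a second cationic amino acid importer, by -1.08 (adjusted p = 0.303). With the mean of its probe sets Slc7a11 fell by 1.06 (adjusted p = 0.0306).

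Among the remaining members, Sesn2, which restrains mTORC1 when leucine is low, read 6.63, 5.21, 5.76 and 6.24 in the neurospheres and 4.57 and 4.15 in the tumors. It fell by 1.60 (SE 0.52, adjusted p = 0.0335), and both tumor values lie below the array medians. The call was lost without neurosphere replicate 4 (-1.38, adjusted p = 0.0765) or 7 (-1.51, adjusted p = 0.0711). Without tumor replicate 4 or 5, which leaves 1 tumor array, the Sesn2 difference was -1.81 or -1.39, and the call was lost as well. Ppp1r15a, the phosphatase subunit GADD34 that reverses eIF2 phosphorylation, read 8.21, 6.52, 6.38 and 6.60 against 5.65 and 5.62, with replicate 4 far above the other neurosphere arrays. It fell by 1.29 (SE 0.41, adjusted p = 0.0284); without that replicate the fall was 0.86 (adjusted p = 0.053). Vldlr, a lipoprotein receptor induced through ATF4, read 8.15, 8.56, 7.75 and 8.45 against 6.40 and 6.08 and fell by 1.98 (SE 0.45, adjusted p = 0.00381). Gadd45a, a growth arrest gene, was the 1 member of the arm with an estimate above 0 (1.32, SE 0.76, adjusted p = 0.241), and its neurosphere arrays ran from 7.73 to 11.69. Ddit4, another mTORC1 inhibitor, differed by -0.31 (SE 0.51, adjusted p = 0.724).

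The ER arm did not follow. Only the sensors Eif2ak3 (PERK) and Atf6 fell, by 0.72 (SE 0.22, adjusted p = 0.0259) and 0.85 (SE 0.17, adjusted p = 0.00168), and 0 of 16 rose; the median of the arm was -0.066. The mean of the Eif2ak3 probe sets gave -0.33 (adjusted p = 0.0656), and its call was also lost without tumor replicate 4, tumor replicate 5 or neurosphere replicate 6. With arrays of 1 title code only Dnajb9 rose (0.89, adjusted p = 0.00796). Atf6 read 7.38, 7.13, 7.44 and 7.58 in the neurospheres and 6.48 and 6.60 in the tumors. Hspa5, the main ER chaperone BiP, read 11.33, 11.28, 11.57 and 11.56 against 11.51 and 11.38, a difference of 0.01 with a 95% interval of -0.41 to 0.43. For 11 of the 16 ER-arm members the interval lay within a factor of 2 either way, and for 1 of the 16 ATF4-arm members.

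Only 2 untreated tumor arrays carry this comparison. When tumor replicate 4 or tumor replicate 5 was left out, 5 of the 11 calls over both arms were made; Asns, Slc7a5, Slc3a2 and Atf6 passed under all 5 alternatives and with each of the 6 arrays left out. The mmm tumor arrays also read far higher than the neurospheres for markers of other brain cells. The 7 mature neuron markers averaged 9.52 and 9.55 on the 2 tumor arrays and 4.31 to 6.41 in the neurospheres (5 of 7 higher, 0 lower), the 6 astrocyte markers 9.12 to 9.57 against 5.39 to 7.80 (3 of 6 higher), the 5 measured oligodendrocyte markers 7.43 to 9.12 against 4.06 to 5.18 (4 of 5 higher), and the 10 microglia markers 8.48 to 8.68 against 3.89 to 4.16 (10 of 10 higher). Endothelial (7 of 8), pericyte and matrix (3 of 7), granule (3 of 7) and red blood cell genes (2 of 2) were also higher and none lower. The 3 measured plasma and B cell markers were at 3.56 to 3.96, below the array medians, in both groups. In bulk tissue, fewer cells of a type and less RNA per cell cannot be told apart, and the part of these other cells in the fall of the ATF4 arm was not tested.

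On gemcitabine-treated tumor replicate 2 the neuron markers averaged 5.71, inside the neurosphere range, and the ATF4 arm averaged 7.55, below the lowest mmm neurosphere array at 8.42. The microglia markers of that array averaged 7.85, the red blood cell genes 8.44 and the pericyte and matrix markers 6.09, each above every mmm neurosphere array. Its granule markers (7.18), oligodendrocyte markers (5.56) and endothelial markers (5.39) were above every mmm neurosphere array too. Its astrocyte markers, at 6.68, and plasma and B cell markers, at 3.67, lay inside the neurosphere range. This is a single drug-treated array, the lowest of the mmm tumor arrays for the neuron markers. The part of other cells in its ATF4-arm level was not tested.

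**Figure D2:**
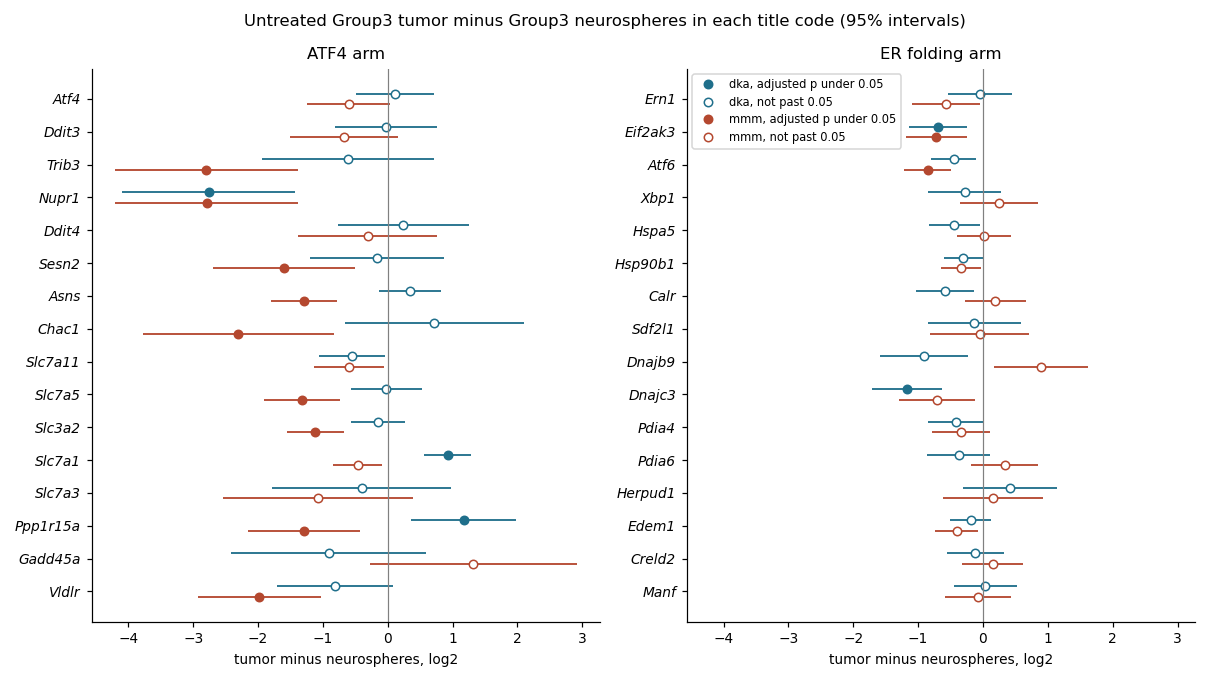
Difference between untreated Group3 tumors and Group3 neurospheres (horizontal axis, log2) for the 32 members in code dka (blue, 3 against 3 arrays) and code mmm (red, 2 against 4 arrays), with 95% intervals; filled points passed an adjusted p of 0.05. In mmm 9 ATF4-arm members lie below 0 and filled, whereas in dka Nupr1 does and Slc7a1 and Ppp1r15a lie above 0 and filled.

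Under code dka, the same comparison of tumors with neurospheres gave another picture. Of the ATF4 arm 2 members rose and 1 fell, and of the ER arm 0 rose and 2 fell; 8.81% of all genes were higher and 9.74% lower. The medians were -0.088 for the ATF4 arm, -0.336 for the ER arm and 0.005 for all genes. The median of the ATF4 arm turned to 0.184 without tumor replicate 3 and to 0.012 without tumor replicate 1.

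Nupr1 was the ATF4-arm member that fell here, from 8.51, 9.01 and 10.55 in the neurospheres to 5.86, 7.04 and 6.87 in the tumors (fall of 2.76, SE 0.64, adjusted p = 0.00461). The groups do not overlap. Slc7a1 rose from 10.65, 10.88 and 10.50 to 11.87, 11.60 and 11.33 (0.92, SE 0.17, adjusted p = 0.000833), again without overlap; a dimmer Slc7a1 probe set (mean 3.98) gave -0.14 (adjusted p = 0.646). Ppp1r15a rose from 6.86, 7.30 and 7.67 to 7.84, 8.74 and 8.77 (1.17, SE 0.39, adjusted p = 0.0395), a call lost when any of 4 arrays was left out. Asns and Chac1, which fell in mmm, had estimates of 0.35 (SE 0.23, adjusted p = 0.34) and 0.72 (SE 0.66, adjusted p = 0.53).

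Tumor replicate 2 of this code read high for several stress genes: 8.03 for Trib3 against 5.87 and 4.53 in the other tumors, 7.73 for Sesn2 against 5.54 and 5.02, 12.22 for Ddit4 against 10.76 and 10.39, and 8.95 for Vldlr against 6.78 and 6.86. On the same array Hspa5 read 10.53 against 11.11 and 11.35, and Calr 10.51 against 11.10 and 11.12, while Dnajc3 was highest there and the ER arm averaged 9.10 against 9.12 and 9.21. Its astrocyte markers averaged 5.01, against 7.45 and 7.55 in the other tumors of the group, and its oligodendrocyte markers 4.22, against 5.51 and 8.64. The ATF4 arm averaged 9.20 on this array and 8.57 and 8.32 on the others. Without this array Vldlr was lower in tumors (-1.53, adjusted p = 0.00349), as was Atf6 (-0.64, adjusted p = 0.0101).

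In the ER arm, Dnajc3, the ER co-chaperone p58IPK that inhibits eIF2 kinases, fell from 9.56, 9.18 and 9.15 to 7.44, 8.68 and 8.25 (fall of 1.17, SE 0.26, adjusted p = 0.00362). Eif2ak3 fell from 8.17, 8.78 and 8.23 to 7.62, 7.52 and 7.95 (fall of 0.69, SE 0.21, adjusted p = 0.0262). The mean of its probe sets gave -0.06 (adjusted p = 0.799), so this call rests on the brightest one. With that probe set the call was lost with arrays of 1 title code only (adjusted p = 0.0993). It was also lost without tumor replicate 1, tumor replicate 2 or neurosphere replicate 2 (adjusted p = 0.0826 to 0.154). Dnajb9, a co-chaperone of BiP, differed by -0.90 (SE 0.32, adjusted p = 0.0591), Calr by -0.59 (adjusted p = 0.0602) and Hspa5 by -0.44 (adjusted p = 0.118). In all, 14 of the 16 estimates were below 0. The dka tumors carried microglia markers at 6.63 to 7.12 against 3.88 to 4.15 in the neurospheres. Their neuron markers averaged 5.86 to 6.44 against 4.72 to 5.59, and granule markers 7.18 to 7.70 against 4.64 to 5.22. Endothelial markers averaged 5.03 to 6.48 against 3.97 to 4.08, and pericyte and matrix markers 5.46 to 7.67 against 3.82 to 4.38. Red blood cell genes averaged 5.64 to 6.49 against 4.16 to 4.40. Astrocyte markers (5.01 to 7.55 against 6.53 to 7.01) and oligodendrocyte markers (4.22 to 8.64 against 4.34 to 4.80) overlapped between the groups. The part of these cells in the ER-arm values was not tested.

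**Figure D3:**
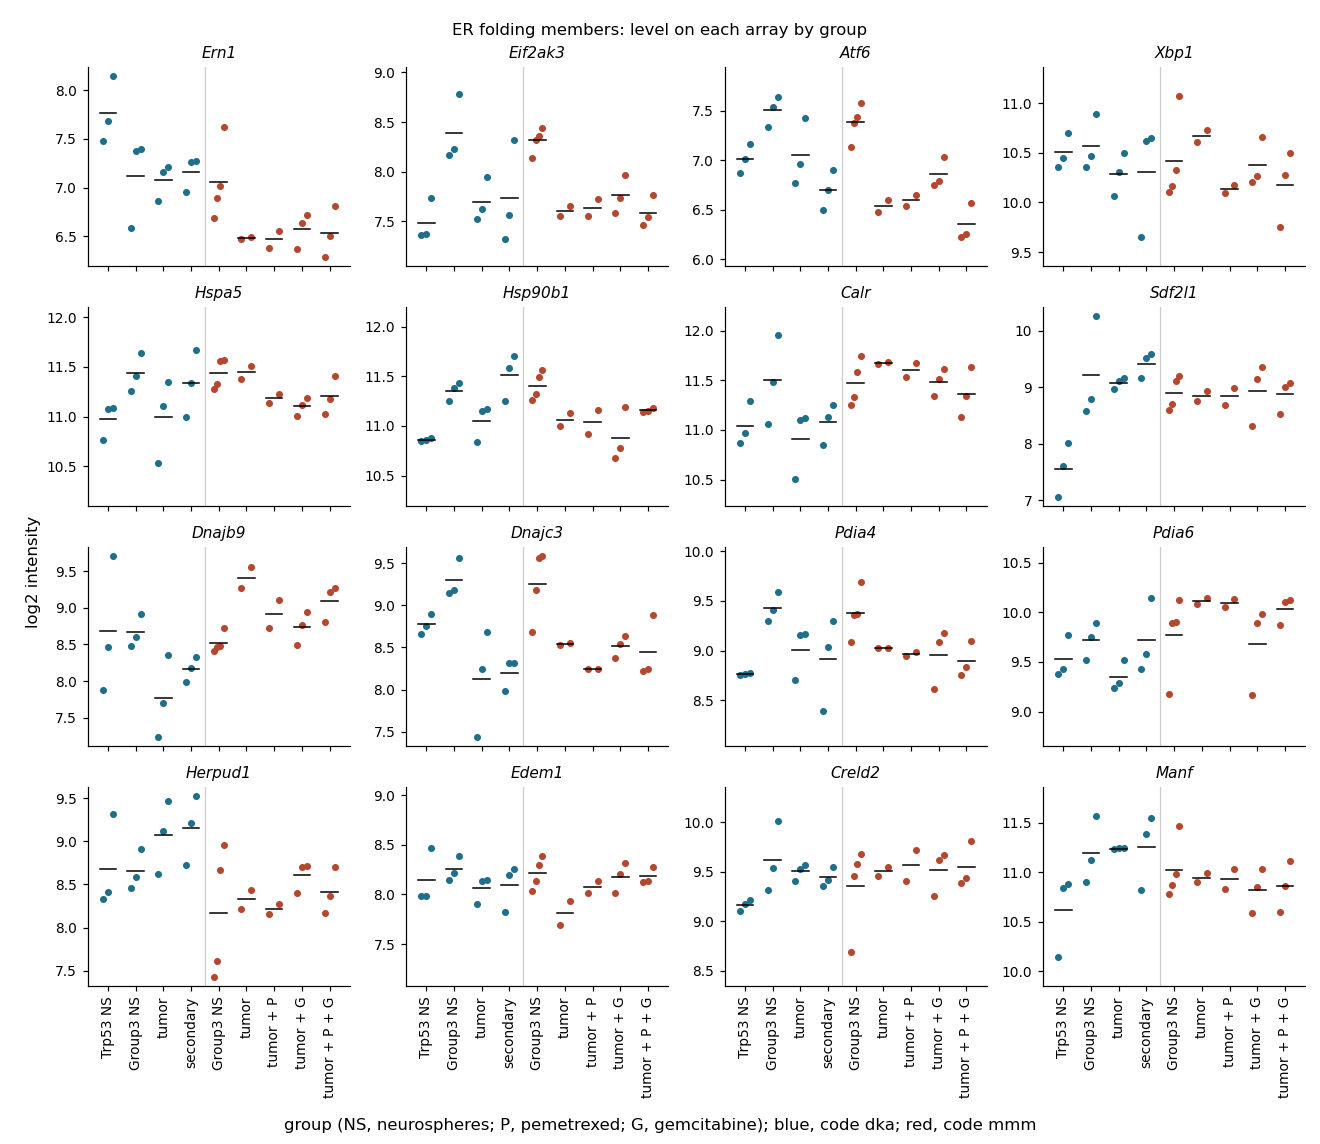
Log2 intensity (vertical axis) of the 16 ER folding members on each of the 26 arrays (points) by group, with group means as black bars; blue is code dka and red is code mmm, and every panel spans at least 2 log2 units. Sdf2l1 is lower on all 3 Trp53 neurosphere arrays than on every other array, and Hspa5, Edem1 and Creld2 vary little among groups. Both are descriptions that cross the codes.

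The difference between the codes was tested directly, as the mmm tumor-minus-neurosphere difference minus the dka one. For the ATF4 arm 5 of 16 members were lower in mmm and 0 higher, and for the ER arm 1 was higher and 0 lower; 4.8% of all genes were lower and 4.36% higher. The median was -1.068 for the ATF4 arm, 0.080 for the ER arm and -0.034 for all genes. Asns gave -1.64 (SE 0.33, adjusted p = 0.00736), Slc7a5 -1.31 (SE 0.38, adjusted p = 0.0399), Slc3a2 -0.97 (SE 0.29, adjusted p = 0.0411) and Slc7a1 -1.39 (SE 0.25, adjusted p = 0.00369). With 12 arrays left out in turn, the Slc7a5 and Slc3a2 calls each held 3 times, and those of Asns and Slc7a1 all 12 times. Ppp1r15a gave -2.47 (SE 0.56, adjusted p = 0.0127), having risen in dka and fallen in mmm, and Dnajb9 gave 1.80 (SE 0.47, adjusted p = 0.0251). Chac1 had the largest estimate, -3.02 (SE 0.96), at an adjusted p of 0.0545; it passed with quantile normalization (0.045) and with the dimmest genes left out (0.0441). Trib3 (-2.18, adjusted p = 0.143), Nupr1 (-0.03, adjusted p = 0.99) and Vldlr (-1.16, adjusted p = 0.251) did not pass.

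Dnajb9 was the only ER-arm member with opposite estimates that passed this test. In dka it read 8.48, 8.92 and 8.60 in the neurospheres and 7.70, 7.24 and 8.35 in the tumors. In mmm it read 8.48, 8.73, 8.47 and 8.41 against 9.55 and 9.27. The tumors thus lay below all neurosphere arrays in 1 code and above them in the other, although neither difference passed alone (-0.90, adjusted p = 0.0591, and 0.89, adjusted p = 0.0703). With arrays of 1 title code only the mmm rise passed (adjusted p = 0.00796), and the dka fall passed with the dimmest genes left out (adjusted p = 0.0483) and without tumor replicate 3 (-1.20, adjusted p = 0.0213).

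The remaining ER-arm genes gave no call between tumors and neurospheres in either code with their brightest probe sets; with the mean of probe sets Hsp90b1 fell in dka tumors (-0.56, adjusted p = 0.00388). Calr, the lectin chaperone calreticulin, read 11.33, 11.58, 11.75 and 11.25 in mmm neurospheres and 11.68 and 11.66 in tumors. Pdia6, a disulfide isomerase, differed by -0.37 in dka (adjusted p = 0.313) and 0.33 in mmm (adjusted p = 0.375). Herpud1, which takes part in ER-associated degradation and holds both the ATF4 core and the second ER element, differed by 0.42 (adjusted p = 0.473) and 0.15 (adjusted p = 0.82). Its mmm neurospheres were split, at 8.96 and 8.67 against 7.43 and 7.61. The secreted ER stress proteins Creld2 and Manf and the BiP cofactor Sdf2l1 had estimates between -0.13 and 0.15 in both codes, all with overlapping groups.

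Without mmm tumor replicate 4 or 5 the 6 calls became 2, and without dka tumor replicate 2 or dka neurosphere replicate 2 they became 3; Asns and Slc7a1 passed each time. The code cannot be told apart from anything else that differed between the 2 sets of arrays. The microglia markers moved further in mmm too (7 of 10 higher by the same test), as did 2 of 7 mature neuron markers, and their part in the code difference was not tested.

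**Figure D4:**
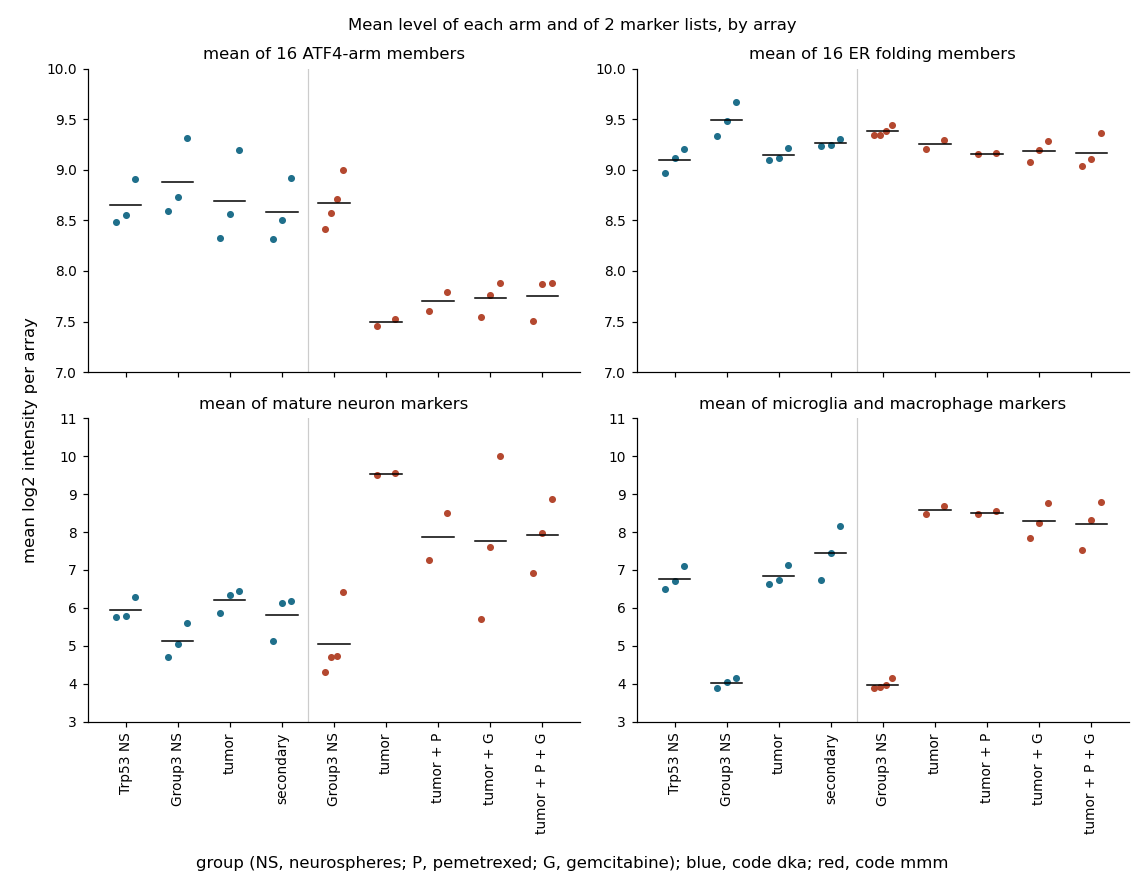
Mean log2 intensity per array (vertical axis, points, with group means as bars) of the 16 ATF4-arm members, the 16 ER folding members, 7 mature neuron markers and 10 microglia and macrophage markers, by group; blue is code dka and red is code mmm. The ATF4 arm averages 7.45 to 7.89 on all 10 mmm tumor arrays and 8.32 to 9.31 on the other 16, while the ER arm stays between 8.97 and 9.67.

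Other genes of the pathway were counted beside the members, against the shares of all genes given above for each comparison. Of 25 measured further ATF4 pathway genes (29 listed) 13 fell and 0 rose in mmm tumors, with a median of -1.385. Pck2, mitochondrial PEP carboxykinase, fell by 3.45 (adjusted p = 0.000128), Aldh1l2, of mitochondrial folate metabolism, fell by 3.19 (adjusted p = 4.16e-05) and Slc1a5, the glutamine importer, fell by 2.32 (adjusted p = 0.0193). In dka tumors 3 of the 25 rose and 3 fell, as Pck2 fell by 2.35 (adjusted p = 0.00221), Gpt2, an alanine aminotransferase, fell by 1.45 (adjusted p = 0.000931) and Shmt2, of mitochondrial serine metabolism, rose by 1.15 (adjusted p = 0.00686). Of 17 measured aminoacyl-tRNA synthetases, which charge tRNAs and include ATF4 targets, 8 fell and 1 rose in mmm (Lars, -1.03, adjusted p = 0.00197; Farsa, 0.86, adjusted p = 0.00437) and 4 rose and 0 fell in dka (Hars, 0.62, adjusted p = 0.00401). The direct test between codes found 7 of the 25 and 3 of the 17 lower in mmm and 0 higher.

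Of the further ER folding and degradation genes (33 measured of 34), 12 fell and 1 rose in mmm tumors, where 11.5% of all genes fell, and 7 fell and 0 rose in dka tumors, where 9.74% did. Sil1, the exchange factor of BiP, fell by 1.46 (adjusted p = 0.000231) and Uggt1, which checks glycoprotein folding, by 1.19 (adjusted p = 8.83e-05) in mmm; Sec24d, a coat protein of ER export, fell by 1.93 (adjusted p = 0.0162) and Hspa13 by 1.43 (adjusted p = 0.00603) in dka. Of 10 measured genes of UPR processing and the ATF6 family, 2 fell in mmm and 4 in dka and none rose, with Creb3l2, an ER-bound relative of ATF6, at -1.76 (adjusted p = 0.0215) and -3.001 (adjusted p = 0.000314). Of 11 eIF2 kinases and factors, 2 fell in mmm, and 1 fell and 3 rose in dka. Of 9 cytosolic heat shock genes, which belong to another stress response, 2 were higher in mmm and 3 in dka and none lower. Counts of 1 or 2 in lists this short are near the shares over all genes and say nothing about the lists. Hsph1 rose by 0.76 (adjusted p = 0.00618) and 1.04 (adjusted p = 0.000345).

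Group3 neurospheres were compared with Trp53 neurospheres under code dka. Of the 16 ER-arm members 5 were higher and 0 lower, and 11 did not pass; the median was 0.458 against 0.084 for all genes. The ATF4 arm was divided, with 2 members higher and 2 lower and a median of 0.142. Of all genes 13.4% were higher and 9.22% lower. The 2 groups differ in Mycn signal, in the granule markers (7 of 7 lower in Group3) and in the microglia markers (7 of 10 lower), and the part of these in the values below was not tested.

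Sdf2l1, a BiP cofactor of the ER, moved most: 7.06, 7.60 and 8.01 in Trp53 neurospheres and 10.25, 8.58 and 8.79 in Group3 neurospheres (1.65, SE 0.35, adjusted p = 0.00154), without overlap. Eif2ak3 rose from 7.73, 7.36 and 7.37 to 8.17, 8.78 and 8.23 (0.91, SE 0.21, adjusted p = 0.0037), and its 2 dim probe sets differed by -0.01 and -0.02. Hsp90b1, the ER chaperone GRP94, read 10.85, 10.88 and 10.86 against 11.43, 11.38 and 11.25 (0.49, SE 0.14, adjusted p = 0.0158). Pdia4, a disulfide isomerase, read 8.77, 8.76 and 8.75 against 9.59, 9.41 and 9.30 (0.67, SE 0.20, adjusted p = 0.0213), and Atf6 7.01, 7.16 and 6.87 against 7.34, 7.64 and 7.54 (0.49, SE 0.16, adjusted p = 0.0348). In each of these genes every Group3 array was above every Trp53 array. For Atf6 another probe set (mean 6.15) gave -0.02 (adjusted p = 0.982) and the mean of probe sets 0.24 (adjusted p = 0.434), and the call was lost under 3 of 5 alternatives. For Eif2ak3 the mean of probe sets gave 0.29 (adjusted p = 0.0857). The Pdia4 call was lost with arrays of 1 title code only (adjusted p = 0.0513) and without any single Trp53 array. Without Group3 neurosphere replicate 1 the calls of Pdia4 (adjusted p = 0.0824) and Hsp90b1 (adjusted p = 0.058) were lost. Hspa5 differed by 0.46 (adjusted p = 0.0908), Manf, a secreted ER stress protein, by 0.58 (adjusted p = 0.0805) and Ern1, the sensor IRE1, by -0.65 (adjusted p = 0.055).

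In the ATF4 arm Trib3 rose from 4.09, 4.75 and 4.80 to 6.64, 5.84 and 7.80 (2.21, SE 0.64, adjusted p = 0.0158), from values about or below the array medians, and the dim Slc7a11 from 3.91, 3.89 and 3.85 to 4.27, 4.33 and 5.34 (0.76, SE 0.24, adjusted p = 0.0274). The Slc7a11 call was lost with the mean of probe sets (adjusted p = 0.175), with 1 title code only and without any of the 3 Trp53 arrays. Without Group3 neurosphere replicate 3 the Slc7a11 value was 0.42 (adjusted p = 0.205). The Trib3 call was lost with 1 title code only (adjusted p = 0.0729). It was also lost without Trp53 neurosphere replicate 1 (adjusted p = 0.0674) or Group3 neurosphere replicate 3 (adjusted p = 0.0977). Slc7a1 fell from 11.39, 11.39 and 11.35 to 10.65, 10.88 and 10.50 (fall of 0.70, SE 0.17, adjusted p = 0.00539), and Ppp1r15a from 8.52, 9.06 and 8.48 to 6.86, 7.30 and 7.67 (fall of 1.41, SE 0.39, adjusted p = 0.0118). Slc7a1 and Ppp1r15a are thus lower in Group3 than in Trp53 neurospheres and higher again in dka tumors; the 2 differences share the Group3 neurosphere arrays and are not independent. With the 12 dka arrays alone, or without Trp53 neurosphere replicate 1, 5 of the 9 calls were made; Sdf2l1 and Slc7a1 passed under all 5 alternatives and with each of the 6 arrays left out. The Ppp1r15a call was lost without Trp53 neurosphere replicate 2 (adjusted p = 0.0589) or Group3 neurosphere replicate 1 (adjusted p = 0.0601). Ddit3 differed by -0.95 (SE 0.37, adjusted p = 0.0759) and Nupr1 by 1.45 (SE 0.64, adjusted p = 0.116), each without overlap between the groups.

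In the pathway lists, 12 of 33 further ER genes were higher and 1 lower in Group3 neurospheres; Derl1 and Derl2, which act in ER-associated degradation, rose by 1.36 (adjusted p = 0.00057) and 1.18 (adjusted p = 0.000183). Creb3l2 rose by 3.07 (adjusted p = 0.000156) as 1 of 2 higher and 0 lower among 10 processing genes. Of 25 further ATF4 pathway genes 8 were higher and 1 lower: Cbs and Cth, which turn homocysteine into cysteine, rose by 3.52 (adjusted p = 0.00109) and 2.67 (adjusted p = 0.000544), and the stress factor Atf3 fell by 4.46 (adjusted p = 0.00135). Of 17 tRNA synthetases 4 were higher and 0 lower (Kars, 0.72, adjusted p = 0.00192), and of 11 eIF2 genes 2 were higher and 0 lower. Of 9 heat shock genes 1 was higher and 2 lower, Hsph1 by -0.87 (adjusted p = 0.00117) and Hsp90aa1 by -0.77 (adjusted p = 0.00209).

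Secondary tumors did not differ from primary tumors at the threshold in any of the 32 members, under code dka with 3 arrays each; 0.263% of all genes were higher and 0.275% lower by limma. At an unadjusted p under 0.05 there were 3 members of 32, and 2175 of all 17097 genes. Hsp90b1 read 11.15, 10.84 and 11.17 in primary and 11.25, 11.58 and 11.71 in secondary tumors, without overlap (0.46, SE 0.14, adjusted p = 0.158), and its mean over probe sets differed by 0.83 with an adjusted p of 0.00186. Ddit3 differed by -0.80 (SE 0.37, adjusted p = 0.379) and Atf6 by -0.35 (SE 0.16, adjusted p = 0.376), each with overlap. The 95% interval lay within a factor of 2 for 14 of 16 ER-arm and 6 of 16 ATF4-arm members, and reached further for the others. The median of the ATF4 arm, -0.170, became 0.178 without primary tumor replicate 2, the array described above.

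Pemetrexed, an antifolate, and gemcitabine, a nucleoside analog, were each given alone and together, and both lower the supply of nucleotides. The comparison asks whether treated tumors differed in these stress genes. By limma 0 of the 32 members passed in either direction for pemetrexed (2 arrays, 0% of all genes), for gemcitabine (3 arrays, 0%) and for the combination (3 arrays, 0.0526% higher and 0.0234% lower), each against the same 2 untreated tumors. At an unadjusted p under 0.05 the counts of members were 0, 1 and 1, and of all genes 807, 1472 and 1350. The combination against gemcitabine, against pemetrexed and the test of non-additivity likewise gave 0 adjusted calls among all genes by limma; at an unadjusted p under 0.05 there were 1, 0 and 1 members of 32, and 898, 427 and 849 of all genes.

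The treated tumors kept the low ATF4-arm level of the untreated mmm tumors. The arm averaged 7.53 and 7.45 untreated, 7.79 and 7.61 with pemetrexed, 7.76, 7.55 and 7.88 with gemcitabine and 7.87, 7.89 and 7.51 with both, against 8.42 to 8.998 in the neurospheres. Of the 16 members, 12 had their lowest mmm group mean in the untreated tumors. Estimates above 0 numbered 13, 12 and 16 of 16 for pemetrexed, gemcitabine and the combination, where 57.8%, 58.3% and 54.6% of all genes were above 0; the comparisons share the 2 untreated arrays, and none of the members passed. The neuron markers, at 9.52 and 9.55 untreated, averaged 5.71 to 9.999 in the treated groups, so the untreated arrays lay toward the upper end of this range; the part of this in the estimates was not tested.

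Slc7a3 had the largest estimates of any member in the single-drug groups. It read 7.21 and 6.05 untreated, 8.57 and 7.83 with pemetrexed, 7.80, 8.05 and 7.68 with gemcitabine and 7.38, 7.32 and 7.26 with both. The difference was 1.57 (95% interval -0.12 to 3.27) for pemetrexed and 1.21 (SE 0.74, adjusted p = 0.676) for gemcitabine, and 0.69 (SE 0.74, adjusted p = 0.898) for both. All treated arrays lay above both untreated ones, and the 2 untreated arrays were 1.16 apart. The groups also did not overlap for 13, 15 and 11 of the 32 members with pemetrexed, gemcitabine and both. The share of all genes without overlap was not counted, and these counts share the 2 untreated arrays. They therefore say nothing about the members as a set. Trib3 read 3.63 and 3.32, then 3.89, 3.65 and 3.96, then 4.09, 4.08 and 3.51 in the 3 treated groups; its largest difference was 0.59 (SE 0.71, adjusted p = 0.919).

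In the ER arm the members with an unadjusted p under 0.05 in a drug comparison were Edem1, which takes misfolded glycoproteins to degradation, and Atf6. Edem1 read 7.93 and 7.69 untreated, 8.21, 8.32 and 8.01 with gemcitabine (0.37, SE 0.17, adjusted p = 0.56) and 8.14, 8.28 and 8.13 with both (0.37, SE 0.17, adjusted p = 0.604). Atf6 read 6.75, 6.79 and 7.03 with gemcitabine and 6.26, 6.57 and 6.23 with both, without overlap (-0.50, SE 0.16, adjusted p = 0.807). For 14 of 16 ER-arm members in each comparison with untreated tumors the 95% interval lay within a factor of 2, against 4, 5 and 6 of 16 ATF4-arm members for pemetrexed, gemcitabine and both. Most ATF4-arm intervals therefore reached beyond a factor of 2.

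**Figure D5:**
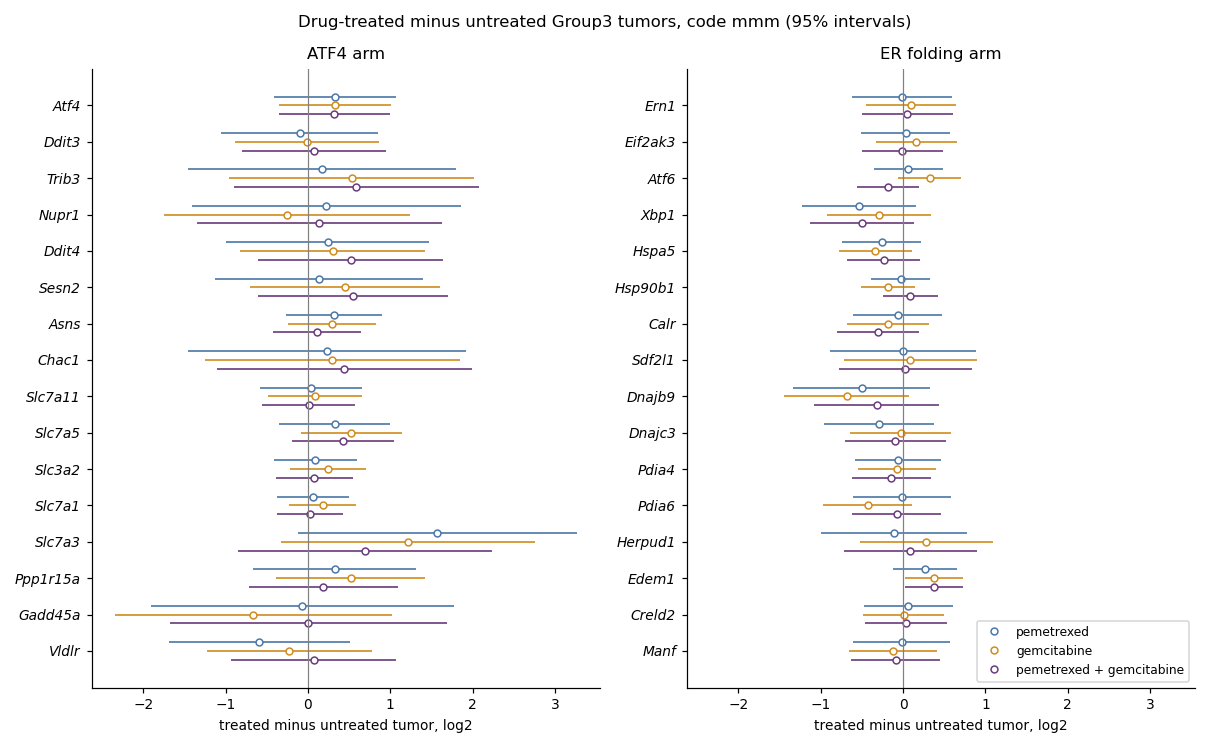
Difference between drug-treated and untreated Group3 tumors of code mmm (horizontal axis, log2) for the 32 members, with 95% intervals; blue is pemetrexed (2 arrays), orange gemcitabine (3) and purple both (3), each against the same 2 untreated arrays. No member passed an adjusted p of 0.05, and the intervals of ATF4-arm members such as Trib3, Chac1 and Gadd45a are wider than those of the ER chaperones.

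None of the further pathway lists held an adjusted call in any drug comparison. The largest estimates were for Stc2, a secreted ATF4 target, at 1.38, 1.25 and 1.33 for pemetrexed, gemcitabine and both (unadjusted p = 0.0682, 0.0694 and 0.0545, limma), and for Cebpb, a partner of ATF4, at 1.48 with both drugs (adjusted p = 0.571). Impact, an inhibitor of the amino acid sensor kinase GCN2, gave -0.84, -0.93 and -0.81 (adjusted p = 0.435 to 1). Lars, a tRNA synthetase, gave 0.50, 0.50 and 0.45. All of these are read against the same untreated pair.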

How the data were processed

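The members and pathway lists were chosen with earlier results of these data known. RNA was amplified with a whole-transcript kit (NuGEN Ovation Pico WTA V2) per the labels' protocols, and the deposited log2 intensities were made by the authors with RMA in Partek 6.6, per the submitters' processing notes; no raw array files were used here. Of 45141 probe sets, 104 controls were dropped, 28898 carried 1 gene symbol in GEO's platform annotation, 551 several and 15588 none; the brightest per gene gave 17097 genes.

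A mean for each of the 9 group-by-code sets was fitted over all 26 arrays with limma 3.58.1 (R 4.3.3), a shared spread and Benjamini-Hochberg adjustment over all genes at 0.05. The fit was tested on simulated data. Alternatives were the arrays of 1 code only, quantile normalization, the mean of probe sets, the dimmest 25% of genes left out, eBayes with trend and robust, and each array left out. From each pathway list, genes were named from the 3 largest changes past the threshold without overlap between groups, or from the 2 largest if none passed. Trp53 and 3 other genes are not analysed here. Read depth does not apply to arrays, whose number limits the precision.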

Additional observations from a re-analysis of the deposited data

Results flagged for a closer look

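Among the 32 members on the 4 mmm Group3 neurosphere arrays, 1 value stood apart: Ppp1r15a read 8.21 on replicate 4 and 6.38 to 6.60 on the others, so that its gap took 0.877 of the group's range. Chance gives such a value in about 1 of 20 groups tested, and 32 were tested.

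The difference between tumors and neurospheres itself differed between the title codes for 6 members, by limma with adjustment over all genes. Asns differed by 0.348 in dka and -1.293 in mmm, a difference of -1.641. Slc7a5 differed by -0.021 and -1.327 (-1.306), Slc3a2 by -0.148 and -1.119 (-0.972), and Slc7a1 by 0.925 and -0.466 (-1.391). Ppp1r15a differed by 1.173 and -1.293 (-2.467), and Dnajb9 by -0.904 and 0.892 (1.797). With 12 arrays left out in turn, the calls of Asns and Slc7a1 held 12 times each. Those of Ppp1r15a held 10 times, of Dnajb9 8 times, and of Slc7a5 and Slc3a2 only 3 times each.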

How the results depend on the processing

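Counts of members called moved as follows. Group3 against Trp53 neurospheres gave 9 calls, 5 with arrays of 1 title code only, and 5 to 9 with an array left out. Tumors against neurospheres gave 5 calls in dka (3 to 6 with an array left out; 3 without Group3 neurosphere replicate 2) and 11 in mmm (5 to 14). The difference between codes gave 6 calls and 2 to 8 with an array left out. Secondary against primary tumors gave 0 calls, 0 to 0 with an array left out and 1 with the mean of probe sets (Hsp90b1). The drug comparisons gave 0 calls under each alternative. No called member changed sign under the alternatives run. Medians of the ATF4 arm, which carry no test, did: in dka tumors against neurospheres -0.088 became 0.012 without tumor replicate 1 and 0.184 without replicate 3, and in secondary against primary tumors -0.170 became 0.178 without primary replicate 2; in Group3 against Trp53 neurospheres 0.142 became -0.010 without Trp53 neurosphere replicate 3. The ER-arm median of the code difference, 0.080, became -0.021 without dka tumor replicate 2. The causes of these changes were not tested beyond the smaller number of arrays. Where an arm was left with 1 array, that array was assumed to vary like the other groups. No paired analysis was possible because replicate numbers here follow accession order and pair no samples. With 2 to 4 arrays a group, differences of dim members such as Slc7a11 and Trib3 are the least certain.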
